A study of Mus musculus with 4 samples.

Results

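Genes for 8 surface proteins that are widely used to recognize mesenchymal stem cells (MSCs) were followed in cultures of mouse whisker follicles, namely of the dermal papilla (DPCs) and of the dermal sheath around it (DSCs). They are Thy1 (CD90), Ly6a (stem cell antigen-1), Cd44, Eng (CD105), Nt5e (CD73), Vcam1 (CD106), Mcam (CD146) and Cd34. The rows were picked by gene name from the table of raw counts, and all 8 names were found once each among its 51826 genes. DPCs and DSCs were grown out of vibrissa follicles of EGFP-transgenic C57BL/6J mice aged 5 to 6 weeks, which the labels list as WT, in DMEM with serum. Low-passage cells were at passage 3 and high-passage cells at passage 9, and each of the 4 groups was sequenced as 1 library. How many animals or cultures went into a library was not given in the sources used here. With 1 library per group there was no replicate spread, so differences between libraries carry a counting interval only, and passage cannot be told apart from anything else that differed between the cultures.

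MSCs are recognized by what they carry on their surface and by what they lack. Thy1 and Nt5e are held in the membrane by a lipid anchor, as is Ly6a, which is used in mouse cells only. Cd44 and Vcam1 are adhesion proteins, Eng is a co-receptor of the transforming growth factor β family, and Mcam is found on perivascular cells. Cd34 marks blood progenitors, endothelium and many stromal cells, and is often low in cultured MSCs. In the hair follicle, the papilla instructs the epithelium above it and the sheath supplies cells to the papilla. The study stained its low-passage cells for some of these proteins. The tables give the transcript level of each gene, and the question put to them here was how these levels differed between the cell types and with passage.

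Total counts lay between 34981284 and 47604059 per library. All 8 genes passed the filter of a mean raw count of at least 10, as did 16734 genes in all. The lowest count of any of them was 86, for Nt5e in high-passage DPCs. Counts of 2 to 9 were even in 64.5% to 68.0% of genes. An excess of even counts would follow if some read pairs entered the counts as 2 reads. The intervals of the members' differences between libraries were therefore also computed on halved counts. Those of ratios between genes and of context genes were not. The labelled cell type was checked against 7 fibroblast genes, of which 6 or 7 had at least 10 counts in every library. Their summed level, in CPM (counts scaled to a common library size), was 17312 at passage 3 and 6402 at passage 9 in DPCs, and 25422 and 22794 in DSCs. The sum followed the collagens Col1a1 and Col1a2, whereas Pdgfra went from 304 to 811 CPM and Dcn from 117 to 153 CPM in DPCs, and from 121 to 266 and from 86.9 to 1966 CPM in DSCs. Of genes that define other lineages, some had 0 counts in all 4 libraries. They were Krt5, Krt14, Krt15 and Cdh1 of keratinocytes, Tyr, Dct and Mlana of melanocytes, Abcc9 and Kcnj8 of mural cells and Cd3e of T cells. Other genes of the same lists did have counts. Of the mural genes, Cspg4 had 622 to 13959 counts and Myh11 168 to 3160. Mitf of melanocytes had 394 to 980 counts, Dsp of keratinocytes 10 to 2307, and Csf1r, a hematopoietic gene, 156 to 570.

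Levels were first compared between genes within a library, on the length-corrected FPKM scale. In low-passage DPCs, Cd44 stood highest at 175 FPKM, followed by Thy1 at 149, Mcam at 73, Eng at 58.5, Ly6a at 48.5 and Vcam1 at 17.8. Cd34 at 3.14 FPKM and Nt5e at 1.67 were far below these and exceeded only 40.3% and 31.5% of the genes tested. In low-passage DSCs the order opened with Thy1 at 327 FPKM, Cd44 at 152 and Eng at 90, and again closed with Cd34 at 8.95 and Nt5e at 5.32.

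The order was not kept in high-passage DPCs. Eng was highest there at 111 FPKM, ahead of Cd44 at 81.6 and Thy1 at 54.4, while Nt5e had 0.621. Adjacent genes were separable by counting error in that library except for Mcam over Ly6a, with a ratio of 1.06 (95% interval 0.954 to 1.18), and Cd34 over Vcam1, with 1.12 (0.951 to 1.32). In high-passage DSCs, Thy1 at 369 FPKM led again, Cd34 was the fifth at 27.9, and Vcam1 was lowest at 11.3. Summed over the 8 genes, the level was 1412 CPM at passage 3 and 823 at passage 9 in DPCs, against 1661 and 1909 CPM in DSCs. High-passage DPCs were the lowest library for 7 of the 8 genes, as for 34% of all genes, and high-passage DSCs the highest for 4, as for 19.3% of all genes.

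**Figure D1:**
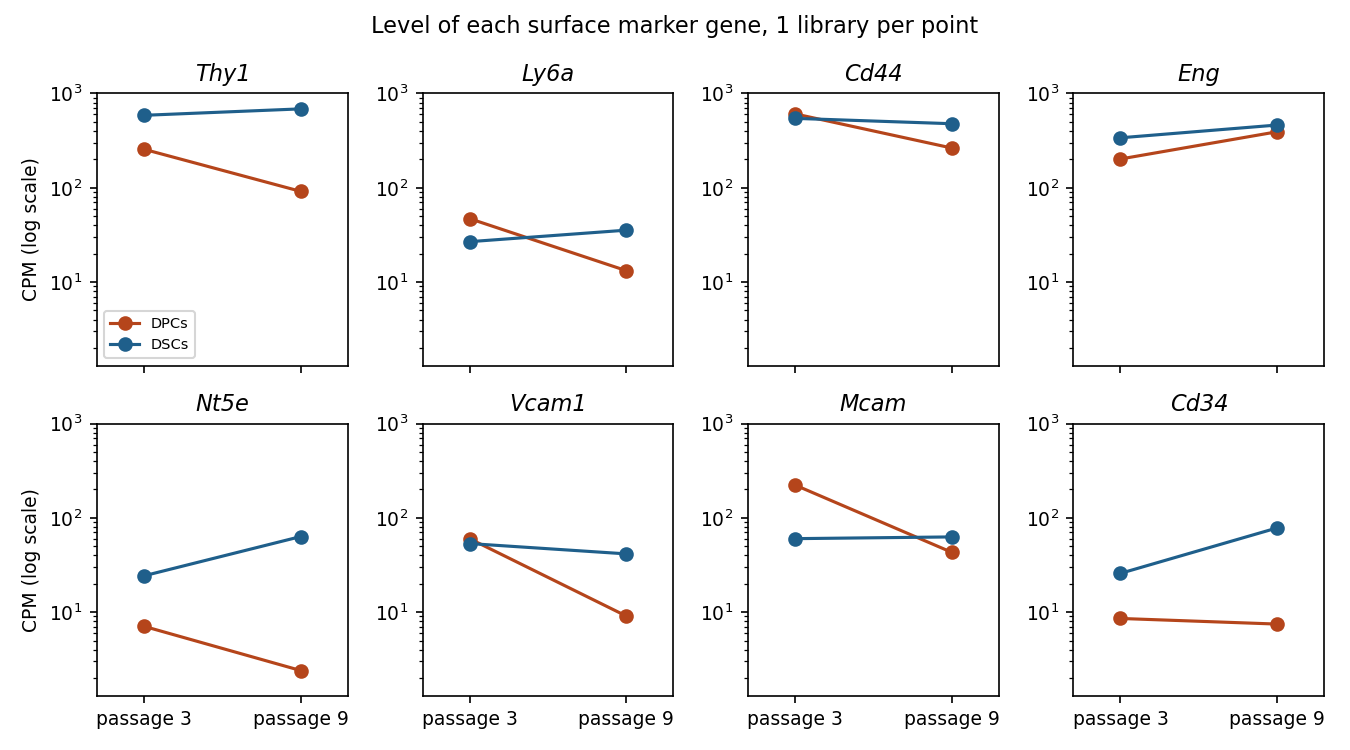
Level of each gene at passage 3 and passage 9 in DPCs and DSCs (CPM on a log axis, 1 library per point, no error bars). In DPCs, 7 of the 8 lines run downward and that of Eng runs upward, from 202 to 393 CPM, while in DSCs the lines of Nt5e and Cd34 climb to 63.4 and 78.3 CPM.

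The first comparison asked what became of the MSC genes with passage in DPCs. A gene was counted as changed when it differed by 4-fold, or 2 on the log2 scale, which is the threshold in the study's text. By this rule Vcam1 and Mcam fell and no member rose, so 2 of 8 were lower, against 4.36% of all genes tested, with 5.58% higher and 9.94% either way. A further 5 members were lower by less than 4-fold, and Eng was higher. The median log2 change of the 8 genes was -1.51, against 0.03 over all genes tested, of which 48.5% were below 0. In bulk RNA, fewer cells that carry a transcript and less transcript per cell cannot be told apart.

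Vcam1, the endothelial and stromal ligand of the α4 integrins, had 60.2 CPM at passage 3 and 9.09 at passage 9 in DPCs, with 53.4 and 41.5 CPM in DSCs. High-passage DPCs stood apart from the other libraries, which lay close together. Its counts in DPCs went from 2213 to 326, a log2 change of -2.72 (95% interval -2.90 to -2.56), and 2.19% of all genes fell at least as far. In DSCs, the change was -0.36 (-0.46 to -0.27).

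Mcam, a cell adhesion protein first described on melanoma cells, went from 223 CPM at passage 3 to 43.1 at passage 9 in DPCs, and had 60.2 and 62.8 CPM in DSCs. Here low-passage DPCs stood high and the remaining libraries lay within a narrow range. The log2 change was -2.37 (-2.45 to -2.29) in DPCs, on 8208 and 1545 counts. In DSCs it was 0.06, with an interval of -0.02 to 0.14 that includes 0. Genes of mural cells, which also carry Mcam, were read beside it. They summed to 261 CPM at passage 3 and 22.3 at passage 9 in DPCs, and to 397 and 188 CPM in DSCs. Of these 6 genes, 2 to 4 had at least 10 counts. The sum came mostly from Cspg4 and Myh11, while Abcc9 and Kcnj8 were at 0 and Rgs5 had at most 18 counts. Cspg4 went from 182 to 17.3 CPM in DPCs and from 368 to 118 CPM in DSCs. Myh11 went from 78.4 to 4.68 CPM in DPCs but from 28 to 69.4 CPM in DSCs. The part of mural cells in the fall of Mcam was not tested.

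**Figure D2:**
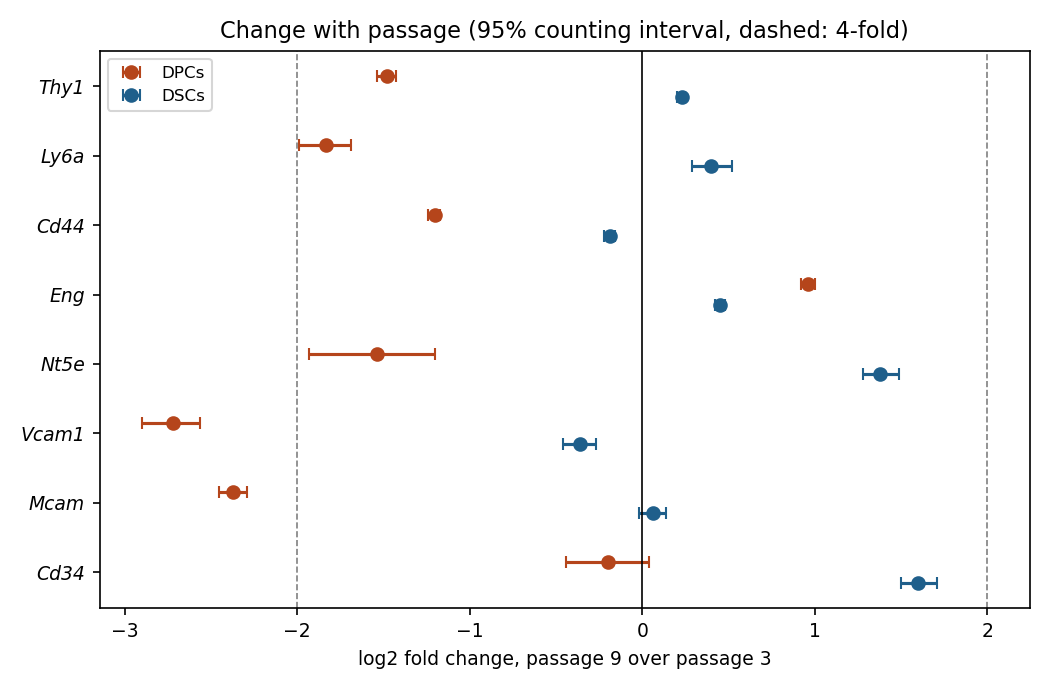
Change of each gene with passage, as the log2 ratio of passage 9 over passage 3 with its 95% counting interval, in DPCs and DSCs (1 library per group). Vcam1 at -2.72 and Mcam at -2.37 in DPCs lie beyond the dashed 4-fold line, and no point in DSCs does.

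Thy1, an immunoglobulin-like protein of fibroblasts, neurons and T cells, had 256 CPM at passage 3 and 91.5 at passage 9 in DPCs, and 587 and 687 CPM in DSCs. It was higher in each DSC library than in any DPC library. The log2 change with passage was -1.48 (-1.54 to -1.43) in DPCs and 0.23 (0.20 to 0.25) in DSCs, which put it 2.8-fold lower in high-passage DPCs.

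Ly6a had 47.1 CPM at passage 3 and 13.2 at passage 9 in DPCs, and 26.8 and 35.5 CPM in DSCs. The highest and the lowest value were thus both in DPCs. Its log2 change was -1.83 (-1.99 to -1.69) in DPCs and 0.40 (0.29 to 0.52) in DSCs. With counts halved, the interval in DPCs was -2.05 to -1.63 and reached the 4-fold threshold.

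Reads of Ly6a can be hard to place, because it sits in a cluster of near-copies on chromosome 15. Of the 50-base windows of its transcripts, 18.97% also occurred in transcripts of other genes, among them Ly6c1, Ly6i, I830127L07Rik and Ly6c2, while the share was 2.14% or less for the other 7 genes. The coding sequences of Ly6a and Ly6i share a run of 80 bases and those of Ly6a and Ly6c1 a run of 45. The runs are given with their flanks from the GENCODE M21 transcripts (coding bases 42 to 137 against Ly6i and 29 to 89 against Ly6c1, counted from the start codon), with the bases that differ within each pair in capitals.
Ly6a against Ly6i: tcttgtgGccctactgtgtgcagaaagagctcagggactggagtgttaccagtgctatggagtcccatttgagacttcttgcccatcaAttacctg
Ly6i: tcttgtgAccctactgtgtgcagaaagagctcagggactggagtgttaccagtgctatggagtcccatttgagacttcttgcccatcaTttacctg
Ly6a against Ly6c1: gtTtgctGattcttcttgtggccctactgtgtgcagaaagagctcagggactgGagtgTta
Ly6c1: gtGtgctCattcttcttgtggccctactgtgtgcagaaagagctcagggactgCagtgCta

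Ly6i and I830127L07Rik had 0 counts in all 4 libraries, and Ly6c2 had between 11 and 16. Ly6c1 had 452 counts at passage 3 and 587 at passage 9 in DPCs, and 358 and 407 in DSCs, a log2 change of 0.41 (0.23 to 0.59) in DPCs and -0.08 (-0.29 to 0.13) in DSCs. How reads that match several genes were counted is not given in the sources used here, and their part in the values of Ly6a was not tested. Of 9 related Ly6 genes only Ly6c1, Ly6c2 and Ly6e passed the filter, and none of them differed by 4-fold with passage.

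Cd44, the main receptor for hyaluronan, had 608 CPM at passage 3 and 264 at passage 9 in DPCs, and 545 and 478 CPM in DSCs. High-passage DPCs were again the low library, and the log2 change was -1.20 (-1.24 to -1.17) in DPCs and -0.19 (-0.22 to -0.16) in DSCs.

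Eng was the exception. It had 202 CPM at passage 3 and 393 at passage 9 in DPCs, and 339 and 463 CPM in DSCs, and was higher at passage 9 in both cell types. The log2 change was 0.96 (0.92 to 1.00) in DPCs and 0.45 (0.42 to 0.48) in DSCs, below 4-fold in each. A log2 rise this large or larger in DPCs was found for 16.9% of genes. Of its exonic bases, 1.5% are shared with Fpgs on the opposite strand.

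Nt5e, the enzyme that turns extracellular AMP into adenosine, had 7.07 CPM at passage 3 and 2.4 at passage 9 in DPCs, and 24.3 and 63.4 CPM in DSCs. Both DPC libraries were below both DSC libraries, and the gap was wider at passage 9. The log2 change was -1.54 (-1.93 to -1.20) in DPCs, on 260 and 86 counts, and 1.38 (1.28 to 1.49) in DSCs. Its interval in DPCs was the widest of the members, and with counts halved it was -2.09 to -1.05.

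Cd34, a sialomucin, had 8.57 CPM at passage 3 and 7.47 at passage 9 in DPCs, and 25.8 and 78.3 CPM in DSCs. In DPCs the log2 change of -0.20 had an interval of -0.44 to 0.04 and includes 0. In DSCs it was 1.60 (1.50 to 1.71), the largest change of a member in DSCs, and 4.07% of genes were at least as far up. Of its exonic bases, 2.0% are shared with Gm16897 on the opposite strand, which had 4, 6, 4 and 26 counts (DPCs at passage 3 and 9, then DSCs).

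In DSCs, then, none of the 8 genes passed the 4-fold rule, against 3.82% of all genes. The median log2 change was 0.32, with 6 members above 0 and 2 below, and 0.00 over all genes, of which 49.7% were below 0. Eng was the one member higher with passage in both cell types, as were 36% of all genes, and Cd44 and Vcam1 were lower in both, as were 34.4%. Across the passage comparisons, the counting interval included 0 for Cd34 in DPCs and for Mcam in DSCs, also on halved counts. The share of all genes whose interval excluded 0 was not computed, so nothing is read from the other intervals as a count.

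Marker genes of other lineages that can carry these proteins were read beside them. Of the 8 endothelial markers, 2 to 6 had at least 10 counts in a library, and they summed to 3.05 CPM at passage 3 and 9.62 at passage 9 in DPCs, and to 9.29 and 1.91 CPM in DSCs. In high-passage DPCs this sum came from Vwf and Erg, with 194 and 147 counts, while Cdh5, Kdr, Tek, Emcn and Tie1 were at 0. In high-passage DSCs, where Cd34 was highest, Tek had 31 counts, Erg 28, Vwf 10, Pecam1 9, Kdr 5 and Emcn 4, and Cdh5 and Tie1 had 0. Of 9 hematopoietic markers, 5 had at least 10 counts in every library. They summed to between 20.3 and 30.2 CPM, mostly from Cd14 and Csf1r, and Ptprc (CD45), which the study used as a negative marker, had 70 and 22 counts in DPCs and 116 and 18 in DSCs. Of 6 Schwann cell markers, 2 to 6 had at least 10 counts and their sum lay between 3.65 and 17.3 CPM, with Sox10 and Cdh19 at 0 in both high-passage libraries. Melanocyte markers, with 2 of 5 at 10 counts or more, summed to between 11.2 and 28.3 CPM. Keratinocyte markers, with 1 of 6, summed to between 0.272 and 50.7 CPM, almost wholly from Dsp. Beyond these levels, the part of other cells in the results was not tested.

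The next comparison set DPCs against DSCs at the same passage. At passage 3 the 8 genes were split, 4 higher and 4 lower in DPCs (49.8% of all genes were lower), and none differed by 4-fold, against 4.3% of all genes. At passage 9 all 8 were lower in DPCs, 4 of them (Thy1, Nt5e, Vcam1 and Cd34) by more than 4-fold, where 3.91% of all genes were lower by that much and 51% were below 0. The median log2 difference of the members was -0.29 at passage 3 and -1.81 at passage 9, and that of all genes was 0.00 and -0.01. The passage 9 comparison uses the same high-passage DPC library as the passage comparison in DPCs, so it is not a separate observation of the low values there.

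At passage 3, Mcam was higher in DPCs by 1.89 on the log2 scale (1.82 to 1.96) and Ly6a by 0.81 (0.70 to 0.93). Both were lower in DPCs at passage 9, Mcam with -0.54 (-0.63 to -0.45) and Ly6a with -1.43 (-1.58 to -1.28). Cd44 and Vcam1 differed by little at passage 3, with 0.16 (0.13 to 0.19) and 0.17 (0.08 to 0.26). At passage 9 their differences were -0.86 (-0.89 to -0.82) and -2.18 (-2.36 to -2.02). The call of Vcam1 was at the threshold, and with the deposited FPKM and a pseudocount of 0.1 the difference was -1.99.

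Thy1, Nt5e, Cd34 and Eng were lower in DPCs at both passages, as were 26.7% of all genes. For Nt5e the log2 difference was -1.77 (-1.98 to -1.58) at passage 3 and -4.69 (-5.05 to -4.41) at passage 9, which is 25.9-fold and was reached or passed downward by 0.442% of genes. Cd34 had -1.58 (-1.78 to -1.40) and -3.38 (-3.57 to -3.21), and Thy1 had -1.20 (-1.23 to -1.16) and -2.91 (-2.96 to -2.86). For Eng the difference shrank from -0.75 (-0.79 to -0.70) to -0.24 (-0.27 to -0.21).

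**Figure D3:**
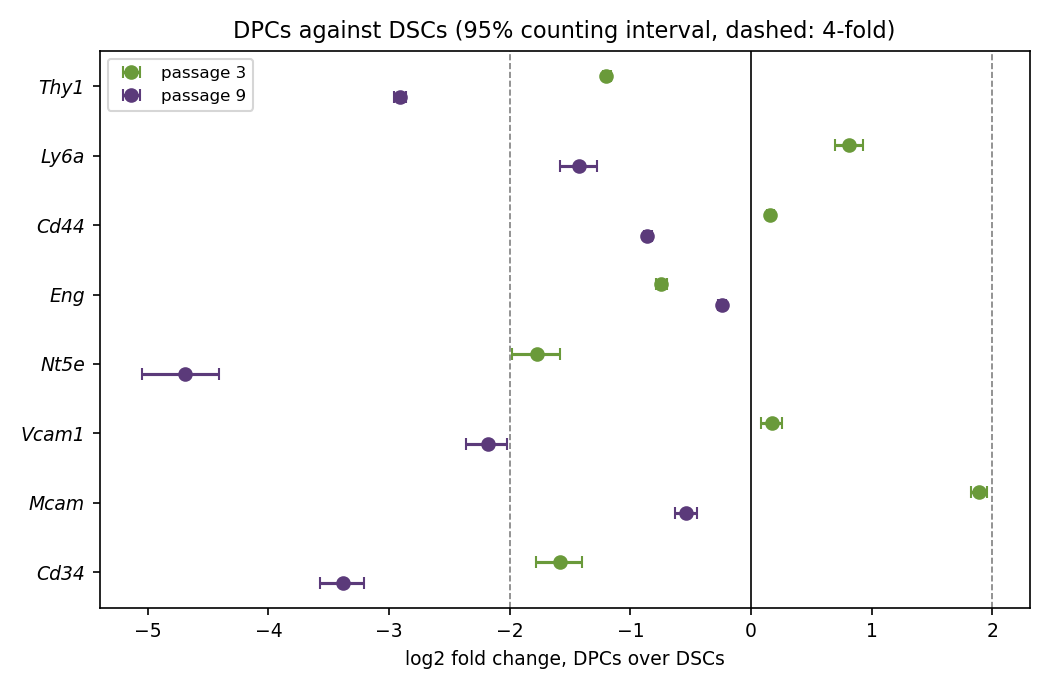
DPCs against DSCs for each gene at passage 3 and at passage 9, as the log2 ratio of DPCs over DSCs with its 95% counting interval (1 library per group, dashed lines at 4-fold). Points at passage 3 lie on both sides of 0 and those at passage 9 are all below it, from -0.24 for Eng to -4.69 for Nt5e.

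**Figure D4:**
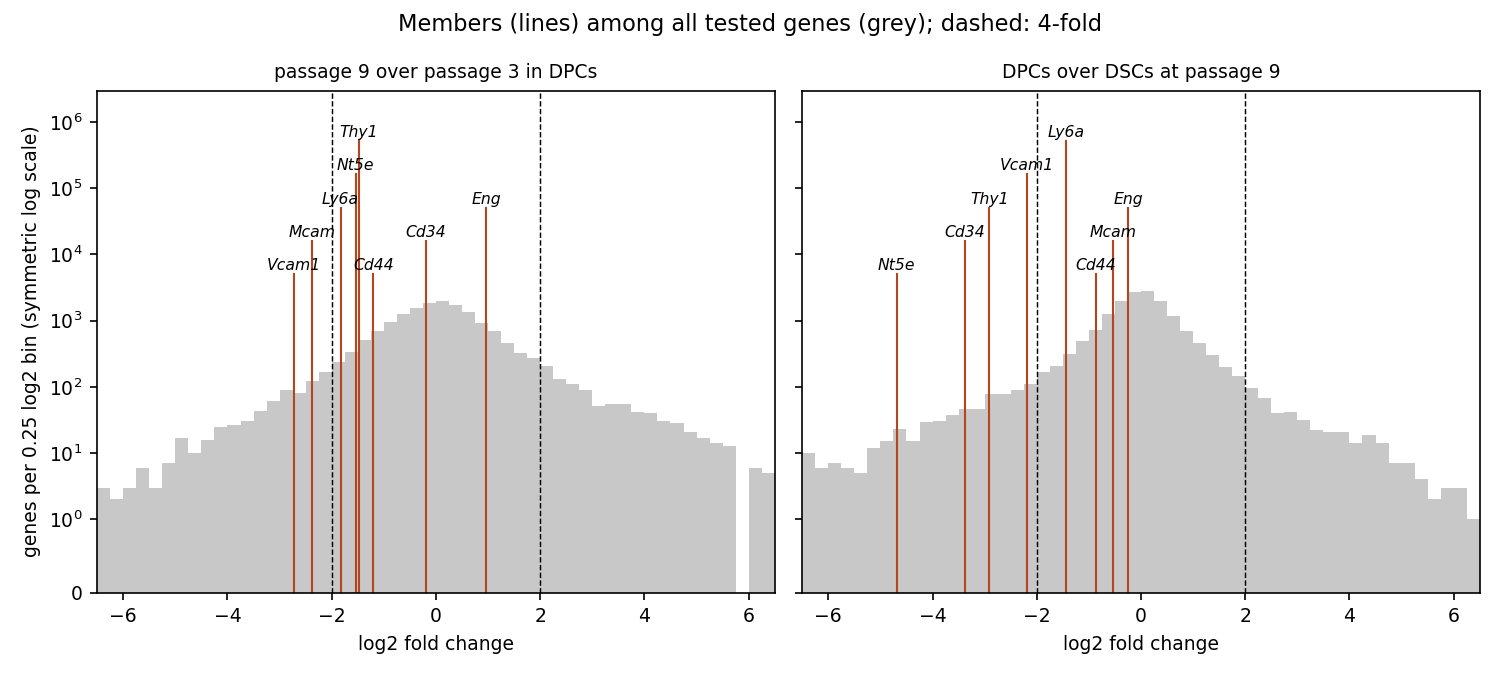
Place of the 8 genes (lines, with heights staggered only for legibility) among all 16734 genes tested (grey, number of genes per bin on a symmetric log axis), for passage 9 over passage 3 in DPCs and for DPCs over DSCs at passage 9. Beyond the lower 4-fold line lie 2 members for passage and 4 for cell type.

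Across the 4 libraries the edgeR quasi-likelihood test with cell type and passage as additive terms called 0 genes for either term at an adjusted p under 0.05, and 16.9% (passage) and 8.25% (cell type) of genes had an unadjusted p under 0.05. This fit has 1 residual degree of freedom, which measures how far DPCs and DSCs differ in their response and not how far cultures vary. The DESeq2 fit given below is of the same model on the same libraries, so its p-values carry the same limit. For passage, the smallest edgeR adjusted p among the 8 genes was 0.307, for Eng, with an average log2 change of 0.70 and both cell types upward, followed by Vcam1 with 0.313 and -1.53. For cell type, the edgeR adjusted p was 0.253 for Cd34 with a log2 difference of -2.49, 0.315 for Thy1 with -2.05 and 0.329 for Nt5e with -3.22, each lower in DPCs at both passages. DESeq2's Wald test of the same model called 5.71% of genes for passage, none of them a member (smallest adjusted p 0.0602, for Vcam1), and 2.96% for cell type, among them Nt5e (adjusted p = 2.13e-05), Cd34 (3.71e-05) and Thy1 (0.000225).

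The change with passage in DPCs was then set against that in DSCs. The difference of the log2 changes was below 0 for 7 of 8 members, as for 50.6% of all genes, and above 0 for Eng, where it was 0.51 (0.46 to 0.56). It passed 4-fold for Nt5e with -2.92 (-3.29 to -2.55), Mcam with -2.43 (-2.54 to -2.32), Vcam1 with -2.36 (-2.55 to -2.17) and Ly6a with -2.24 (-2.42 to -2.05), whereas 3.71% of all genes lay that far below 0. Cd34 had -1.80, Thy1 -1.71 and Cd44 -1.02. For Thy1, Ly6a and Nt5e the counting intervals lay below 0 in DPCs and above 0 in DSCs. Point estimates lower in DPCs and higher in DSCs were found for 5 members and for 14.1% of all genes. This difference could not be tested with 1 library per group.

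Within the members, profiles over the 4 libraries were compared by the Euclidean distance between log2 CPM values centred on each gene's mean. The closest pair was Ly6a and Cd44, at 0.61, and the most distant was Nt5e and Mcam, at 4.06. Nt5e and Cd34 were 1.22 apart and shared their high value in high-passage DSCs. Outside the members, and among genes with a mean count of at least 100, Thy1 was closest to Ptprz1 at 0.25 and Lmcd1 at 0.30, Nt5e to B3gnt3 at 0.55 and Ndufa4l2 at 0.70, Vcam1 to Gm22 at 0.19 and Zfp664 at 0.21, Mcam to Pag1 at 0.35 and Ctxn1 at 0.40, and Cd34 to Ret and Rspo2 at 0.42 each.

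RefSeq promoter sequences (GRCm38.p6) were at hand for 5 of the 8 genes, namely Cd44, Eng, Nt5e, Mcam and Cd34. RefSeq and GENCODE place some starts differently, and for Mcam, Nt5e and Cd34 the RefSeq start lies within the gene as GENCODE draws it. The 250 bases before each RefSeq start were searched on both strands, overlapping matches included, for 4 motifs chosen after the sequences had been seen. The letters TATAAA of the TATA box occurred in 12.4% of 32851 promoter windows of this length. The GC box GGGCGG occurred in 32.7% of them, the box named CCAAT in 33.8% and the cAMP response element TGACGTCA in 1.55%. Mcam, which fell in DPCs, had 5 GC boxes (CCGCCC on its own strand in the stretch printed) and the cAMP response element, the latter starting 29 bases before the RefSeq start, and Nt5e had 4 GC boxes. Cd44, Eng and Cd34 had none of the letters searched. The share of G and C was 73.6% for Mcam, 72.0% for Nt5e, 62.4% for Eng, 56.4% for Cd44 and 46.4% for Cd34, and the median of all promoters was 52.4%. The stretch of Mcam with its motifs in capitals is shown, with the windows of Eng, which was higher with passage, and of Cd34, which differed least with passage in DPCs. The window of Cd34 is printed to 248 of its 250 bases, up to the start of the gene in GENCODE.
Mcam, chr9:44134616-44134645, plus strand: tcccCCGCCCcccTGACGTCAgcccccgac
Eng, chr2:32646345-32646594, plus strand: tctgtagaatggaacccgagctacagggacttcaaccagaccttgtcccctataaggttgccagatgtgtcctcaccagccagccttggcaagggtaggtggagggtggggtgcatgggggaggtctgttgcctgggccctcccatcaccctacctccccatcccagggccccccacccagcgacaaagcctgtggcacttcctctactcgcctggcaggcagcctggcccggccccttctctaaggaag
Cd34, chr1:194938571-194938818, plus strand: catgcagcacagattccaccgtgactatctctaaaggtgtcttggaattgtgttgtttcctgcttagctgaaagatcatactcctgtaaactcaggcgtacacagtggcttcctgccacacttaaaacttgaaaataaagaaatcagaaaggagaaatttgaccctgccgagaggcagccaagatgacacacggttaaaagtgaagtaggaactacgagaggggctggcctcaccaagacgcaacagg

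Other genes for surface proteins of MSCs gave a wider context. Of 16 such genes, 14 were tested. In DPCs, 2 of them (Icam1 and Alcam) rose and 2 (Ngfr and Cd200) fell by 4-fold, where 5.58% of all genes rose and 4.36% fell, and in DSCs Ngfr fell and none rose, where 1.16% of all genes fell and 2.67% rose. Their median log2 change was -0.34 in DPCs and -0.06 in DSCs. Itgb1 (CD29), which the study stained for, had between 1735 and 2406 CPM in the 4 libraries with a log2 change of 0.17 (0.15 to 0.18) in DPCs and 0.45 (0.44 to 0.47) in DSCs.

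Icam1, a leukocyte adhesion ligand that, like Vcam1, belongs to the immunoglobulin superfamily, had 17 counts at passage 3 and 200 at passage 9 in DPCs, and 116 and 101 counts in DSCs. Its log2 change was 3.45 (2.88 to 4.40) in DPCs, where Vcam1 fell, and -0.46 (-0.86 to -0.07) in DSCs. Alcam (CD166) rose by 2.10 (1.95 to 2.27) in DPCs and had 0.02 (-0.17 to 0.22) in DSCs. Cd200, with 86 and 16 counts in DPCs, changed by -2.26 (-3.26 to -1.61). Ngfr (CD271) had 0 counts in both high-passage libraries, against 144 in DPCs and 544 in DSCs at passage 3. Setting the 0 to 3 counts per library puts it at least 46.8-fold lower in DPCs and 218-fold lower in DSCs, while the 95% intervals of the log2 change, which also take in the counting error at passage 3, reach up to -5.23 and -7.46. Ngfr is also a gene of Schwann and neural crest cells. Of the Schwann cell markers, Sox10 had 28 counts at passage 3 and 0 at passage 9 in DPCs, with 116 and 0 in DSCs. In the same order, Cdh19 had 33 and 0, then 95 and 0 counts, and Erbb3 had 18 and 0, then 44 and 9. Their part in the fall of Ngfr was not tested.

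Binding partners and enzymes that act beside the members were read from a second list, of which 14 of 18 genes were tested. Spp1 (osteopontin), a ligand of Cd44, rose in both cell types, with 2.40 (2.38 to 2.41) for DPCs and 2.24 (2.23 to 2.25) for DSCs. Has2, which makes hyaluronan, fell in DPCs by 3.94 on the log2 scale, from 247 to 14 counts, and changed by 0.37 (0.18 to 0.57) in DSCs. Itga4, the α4 subunit that binds Vcam1, rose in DSCs by 2.88 (2.78 to 2.99), from 796 to 7052 counts, and was higher by 0.80 (0.76 to 0.84) in DPCs. No other tested gene of this list reached 4-fold with passage, so 1 rose and 1 fell in DPCs (5.58% and 4.36% of all genes) and 2 rose in DSCs (2.67%). Podxl, which was not tested, had 15 and 2 counts in DSCs. The list's median was 0.09 in DPCs and 0.33 in DSCs.

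Entpd1 (CD39), the enzyme upstream of Nt5e that turns ATP into AMP, is given because its values were seen to resemble those of Nt5e. It had 123 counts at passage 3 and 43 at passage 9 in DPCs, and 182 and 440 counts in DSCs. The log2 change was -1.44 (-2.02 to -0.97) in DPCs and 1.00 (0.76 to 1.27) in DSCs, in each cell type in the direction of Nt5e and below 4-fold. Ada, which breaks adenosine down and was also chosen after its values were seen, had -1.72 (-1.98 to -1.48) in DPCs and -0.89 (-1.16 to -0.65) in DSCs. Acvrl1, the receptor that Eng assists, named in the same way, had -1.23 (-1.35 to -1.12) and -0.96 (-1.11 to -0.81), opposite in direction to Eng in both cell types.

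**Figure D5:**
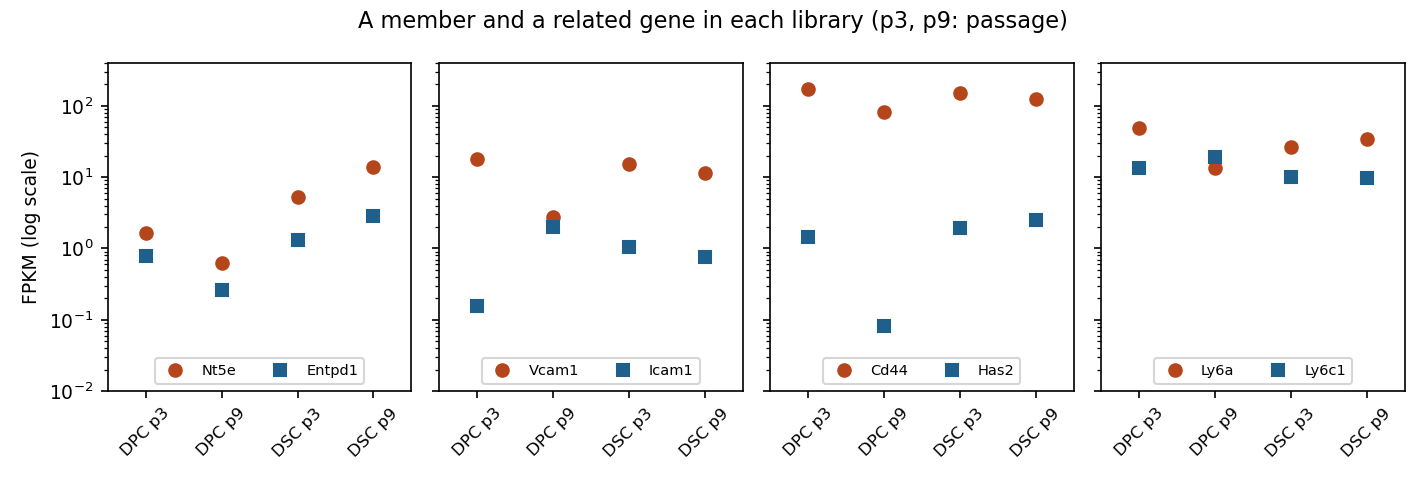
FPKM on a log axis of a member (circles) and a related gene (squares) in the 4 libraries, with 1 library per point. Nt5e and Entpd1 are lowest in high-passage DPCs and highest in high-passage DSCs, whereas Icam1 is highest, at 2.03 FPKM, and Has2 lowest, at 0.0808 FPKM, in high-passage DPCs.

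Positions of the members, as deposited and identical in GENCODE M21 (GRCm38), are chromosome 9, 44043384 to 44048579 for Thy1 (ENSMUSG00000032011), chromosome 15, 74994877 to 74998031 for Ly6a (ENSMUSG00000075602) and chromosome 2, 102811141 to 102901665 for Cd44 (ENSMUSG00000005087). Eng (ENSMUSG00000026814) lies on chromosome 2, 32646595 to 32682669, Nt5e (ENSMUSG00000032420) on chromosome 9, 88327197 to 88372092, and Vcam1 (ENSMUSG00000027962) on chromosome 3, 116109949 to 116129688. Mcam (ENSMUSG00000032135) lies on chromosome 9, 44134469 to 44142727, and Cd34 (ENSMUSG00000016494) on chromosome 1, 194938819 to 194961279. All are protein-coding, and none shares exonic bases with another gene on its own strand.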

How the data were processed

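Poly-T selected mRNA of 4 libraries was sequenced in paired-end mode. The authors deposited raw counts per gene, which are whole numbers and not normalized, and FPKM per gene, which they normalized for length and depth. The labels' processing notes name Bowtie 0.12.2 and the builds mm8 and mm9, with no role. The counting program and the use of strand are not given in the sources used here. Of 51633 gene IDs found in GENCODE M21 (GRCm38), 94.1% had identical positions.

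TMM scaling used edgeR 4.0.16 under R 4.3.3. A gene was tested if its raw count averaged 10 or more. A fold change subtracts log2 CPM values that carry a prior count of 2, while printed CPM values carry none. The 95% intervals are exact (Clopper-Pearson, scipy 1.17.1) and treat the counts of a gene in a pair of libraries as binomial. For the difference of changes they are normal intervals on the log scale from Poisson counts. They cover counting error only and compare libraries, not conditions. A count of 0 was set to 3 counts for lower bounds. The additive model used edgeR's quasi-likelihood test with Benjamini-Hochberg adjustment over all genes, and DESeq2 1.42.0 as the alternative. The fitting steps were tested on simulated data.

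The members and lists were chosen with earlier results of these data known. The text names all 8 members, up to 4 genes per list that passed 4-fold with passage, and the 2 nearest profiles of each member that ranged over 2 log2 units or more. Exceptions are said in the text.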

Additional observations from a re-analysis of the deposited data

Results flagged for a closer look

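Opposite directions in DPCs and DSCs, with the 95% counting intervals of the passage changes on opposite sides of 0, were found for 3 of the 8 genes and for 5 of the 31 tested genes of the context lists. Of all genes tested, 11.6% met the same rule. The rule used intervals on unhalved counts, and some ended close to 0. For Cd81 in DPCs the interval was -0.07 to -0.00, and for Icam1 in DSCs -0.86 to -0.07. Intervals on halved counts were not computed for the context genes. The log2 change in DPCs minus that in DSCs was -1.71 for Thy1, -2.24 for Ly6a and -2.92 for Nt5e. Of the context genes, it was 3.91 for Icam1, -4.31 for Has2, -2.44 for Entpd1, -0.59 for Cd63 and -0.30 for Cd81. None of these differences was tested, since each group was 1 library, and all of them share the same 4 libraries. Cd63 and Cd81 were named after their values were seen.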

How the results depend on the processing

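Under other scalings (DESeq2 size factors, upper quartile), a prior count of 10, other filters and the deposited FPKM, all 240 recomputed values of the 8 genes kept their sign and 239 kept their side of the 4-fold threshold, the exception being Vcam1 in DPCs against DSCs at passage 9 (-1.99 with FPKM). Halving the counts moved no interval of a member across 0. The medians of all genes moved by no more than 0.1, except for DPCs over DSCs at passage 9 with FPKM. There the median was 0.09, against -0.01 in the main setting, a shift just over 0.1. Counts of all genes 4-fold apart depended on the setting. In the main setting there were 1663 for passage in DPCs and 640 for passage in DSCs. For cell type there were 719 at passage 3 and 1074 at passage 9, and for the difference of changes 1252. Without a filter there were 2622 for passage in DPCs, 1254 for passage in DSCs, 1319 and 1805 for cell type at passage 3 and 9, and 2619 for the difference of changes. Where the mean count had to reach 100 these were 758, 210, 301, 458 and 470. With a prior count of 10 they were 339 for passage in DSCs, 400 and 712 for cell type at passage 3 and 9, and 781 for the difference. With FPKM they were 350 for passage in DSCs and 392 for cell type at passage 3. The additive edgeR test for cell type called 5 genes with DESeq2 size factors and 13 with a mean count of at least 100, and the DESeq2 Wald test called 955 for passage and 496 for cell type. The cause was not tested. Leaving out a library removes its comparison, so this was not run. No paired analysis was possible because each group holds 1 library, so that no replicate numbers pair the groups. The additive fit sets the passages against each other with cell type as a term. The members had 86 counts or more, and depth limited the interval most for Nt5e in DPCs.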
